A study of Mus musculus with 4 samples.

Results

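The genes described here are 37 genes of neuronal differentiation, measured by RNA sequencing in primary neural stem cells of the mouse. They were chosen as a fixed list of symbols and found among the 55414 genes of the files by Ensembl identifier, and each of the 37 was matched. Libraries came from Mettl4 knockout (KO) cells and from wild type (WT) cells, with 2 libraries in each group. Both genotypes were cultured from the cortex of E14.5 embryos, expanded as neurospheres with EGF and bFGF, dissociated and plated as an adherent monolayer. The series asks whether Mettl4, an adenosine methyltransferase gene, bears on the proliferation and differentiation of these cells. The labels do not give the deleted part of the gene, the strain or the sex, and they do not say whether the libraries came from separate embryos or cultures, so the p-values reflect only how far these libraries vary, and part of that may be technical.

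A neural stem cell that becomes a neuron leaves the cell cycle under proneural transcription factors, then builds an axon on stabilised microtubules and neurofilaments, and later adds synaptic vesicles and receptors. Outside neurons, many neuronal genes are kept silent by the repressor REST, which binds a DNA site known as RE1 and recruits the CoREST and Sin3 complexes. EGF and bFGF hold cultured neural stem cells in the dividing state, and the cells studied here were not labelled as differentiated.

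Library totals were 18150389 and 19310668 counts in KO replicates 1 and 2, and 12812064 and 16883734 counts in WT replicates 1 and 2. Mettl4 (ENSMUSG00000055660) was at 15.6 and 17.6 CPM (counts scaled to library size with TMM factors) in the KO libraries, against 63.8 and 66.6 CPM in the WT libraries. Its log2 fold change, KO minus WT, was -1.97 with a standard error (SE) of 0.17 (edgeR adjusted p = 0.00513). WT replicate 1 stood apart in sex-linked RNA, with 626 counts of the Y-linked Ddx3y and 3784 of Xist. The other libraries had 0 counts of Ddx3y and between 54699 and 65857 of Xist. Values without WT replicate 1 are given for the neuronal, progenitor, repressor, astrocyte and oligodendrocyte lists and for some single genes. Markers of neural stem cells and radial glia were abundant, with a summed level over 15 genes of 7459 and 8198 CPM in KO and 7280 and 7958 CPM in WT. The summed level of 9 microglial markers was between 6.84 and 8.02 CPM, and that of 7 endothelial markers between 3.62 and 4.51 CPM. For 9 mesenchymal and mural markers it was 4.70 and 4.10 CPM in KO, against 10.6 and 7.44 CPM in WT.

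Neuronal RNA was uneven in these cultures. A few genes of the list were abundant, while 7 of them, among them the NeuroD factors and Stmn2, were at or near 0 counts in both genotypes. The other 30 genes had enough counts for the test. Among the tested genes, 5 averaged over 100 CPM, 9 lay between 10 and 100 CPM, 13 between 1 and 10 CPM, and 3 under 1 CPM. The 5 highest in CPM, Map2, Gria2, Dpysl3, Camk2b and Ncam1, held 85.7% of the summed CPM of the list, and Map2 alone held 46.2%. CPM is not corrected for gene length, and per kilobase of exon Stmn3 and Gap43 came next after Map2. None of the 30 tested genes was called different between KO and WT at an adjusted p under 0.05 in the edgeR test. Over all 19912 genes tested, 1 was called (0.00502%), which was Mettl4. DESeq2 called 6 genes (0.0301%) and limma-voom 1, with 0 members in either. At an unadjusted p under 0.05 there was 1 member by edgeR and 1 by limma-voom, Nefh in both, and 1 by DESeq2, Thy1. Over all 19912 tested genes there were 551 by edgeR (2.77%), 548 by limma-voom and 291 by DESeq2. Every tested member had an edgeR adjusted p of 0.9999. In bulk RNA, fewer neurons and less RNA per neuron cannot be told apart, nor can a low level in every cell and a high level in a few. Which cells, neurons or others, held the RNA of these genes was not measured.

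**Figure D1:**
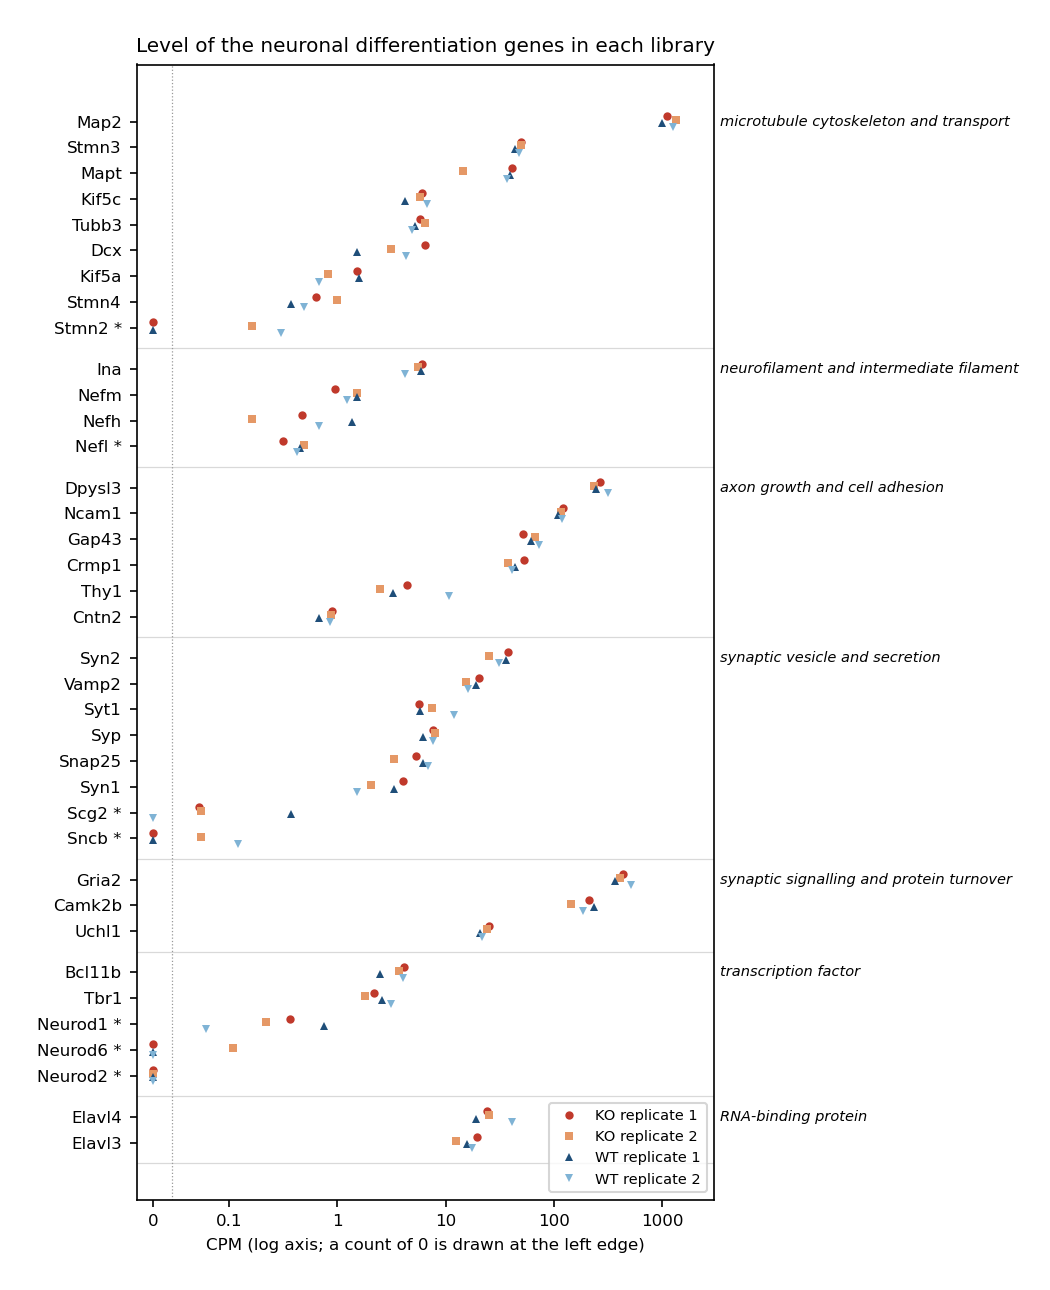
Level of each of the 37 neuronal genes in CPM (log axis), grouped by role, with a point for each of the 2 KO and 2 WT libraries; an asterisk marks the 7 genes under the low-count filter and a count of 0 is drawn at the left edge. Map2 lies between 1000 and 1335 CPM, while Neurod2 is at 0 counts in each library.

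The 7 genes under the filter had at most 10 counts in any library. They include 3 basic helix-loop-helix factors of the NeuroD family, which drive neuronal differentiation. Neurod2 had 0 counts in each of the 4 libraries, which allows up to 0.165 and 0.155 CPM in KO replicates 1 and 2, and up to 0.234 and 0.178 CPM in WT replicates 1 and 2 (3 counts over the library total, covering counting error only). Neurod6 had 0 and 2 counts in KO and 0 and 0 in WT. Neurod1 had 7 and 4 counts in KO, against 10 and 1 in WT, so the WT libraries enclosed the KO libraries. Stmn2, a microtubule regulator of growing axons, had 0 and 3 counts in KO and 0 and 5 in WT. Sncb, beta-synuclein of the presynaptic terminal, had 0 and 1 counts in KO and 0 and 2 in WT. Scg2, a granin of secretory vesicles, had 1 and 1 counts in KO, against 5 and 0 in WT. Nefl, the light neurofilament subunit, had 6 and 9 counts in KO and 6 and 7 in WT. No difference between genotypes was detectable at this depth for these genes, and no fold change is given.

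Among genes of the microtubule cytoskeleton and axonal transport, 8 of 9 were tested and 0 were called. Map2, a microtubule-associated protein of dendrites, measured 1110 and 1335 CPM in KO, against 1000 and 1266 CPM in WT. The groups overlapped, and the log2 fold change was 0.11 with a 95% interval from -0.37 to 0.59. Tubb3, the neuronal beta-tubulin used to stain young neurons, was far lower, at 5.86 and 6.46 CPM in KO and 5.21 and 4.88 CPM in WT. Both KO libraries lay above both WT libraries, but the interval of the log2 fold change ran from -0.28 to 0.86. Dcx, doublecortin of migrating neurons, read 6.49 and 3.12 CPM in KO, against 1.51 and 4.33 CPM in WT. Its libraries differed 4.30-fold from lowest to highest and the groups overlapped. The low library was WT replicate 1, and the log2 fold change was 0.69 with all libraries and 0.15 without it. Dcx lies on the X chromosome, as do the members Syn1 and Syp. Without WT replicate 1 the Syn1 value went from 0.35 to 1.00 and the Syp value from 0.18 to 0.037. The part of sex in these values was not tested. Mapt, the axonal protein tau, read 40.6 and 14.5 CPM in KO, against 38.9 and 36.8 CPM in WT. KO replicate 2 was the low library, and the other 3 lay close together.

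The stathmins bind tubulin and regulate microtubule growth. Stmn3 measured 50.1 and 49.9 CPM in KO and 43.5 and 47.7 CPM in WT, with a log2 fold change of 0.13 (SE 0.15). Stmn4 measured 0.633 and 0.985 CPM in KO and 0.377 and 0.488 CPM in WT. Stmn4 passed the filter through the KO libraries only, so the sign of its log2 fold change (0.88, SE 0.61) is tied to the filter. Of the kinesin heavy chains that carry axonal cargo, Kif5c measured 6.07 and 5.75 CPM in KO and 4.23 and 6.77 CPM in WT. Kif5a measured 1.53 and 0.821 CPM in KO and 1.59 and 0.671 CPM in WT, and replicate 1 was the higher library in each genotype.

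Neuronal intermediate filaments were low throughout. Ina, alpha-internexin, which precedes the neurofilament triplet in development, measured 6.02 and 5.58 CPM in KO and 5.96 and 4.21 CPM in WT. Nefm, the medium neurofilament subunit, measured 0.9498 and 1.53 CPM in KO and 1.51 and 1.22 CPM in WT. Nefh, the heavy subunit, had 9 and 3 counts in KO, against 18 and 11 in WT, or 0.475 and 0.164 CPM against 1.36 and 0.671 CPM. Nefh was the single member with an unadjusted edgeR p under 0.05, where 2.77% of all tested genes had such a p. Its log2 fold change was -1.61 (SE 0.70, edgeR adjusted p = 0.9999). With a library left out its log2 fold change ran from -2.55 to -1.045. The unadjusted p was over 0.05 without WT replicate 1 (-1.045), without KO replicate 2 (-1.058), with library totals alone and with DESeq2. Nefh passed the filter through the WT libraries only, so the filter favoured a lower value in KO. Exons of Nefl and Nefm overlap on opposite strands, and whether strand was used in the counting is not stated, so their reads may be shared.

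Genes of axon growth and adhesion held some of the highest levels. Dpysl3, a collapsin response mediator of growth cones, measured 266 and 236 CPM in KO and 246 and 317 CPM in WT. Ncam1, a neural adhesion molecule also made by progenitors, measured 121 and 117 CPM in KO and 110 and 119 CPM in WT. Its interval was the narrowest of the list, from -0.25 to 0.36. Gap43, a growth cone protein, measured 52.1 and 67.2 CPM in KO and 61.1 and 72.8 CPM in WT, with overlapping groups. Crmp1, a relative of Dpysl3, measured 52.3 and 37.8 CPM in KO and 43.5 and 41.0 CPM in WT. Cntn2, an axonal contactin, was near the low end of detection at 0.897 and 0.876 CPM in KO and 0.679 and 0.854 CPM in WT. Thy1, a surface glycoprotein of mature neurons, read 4.43 and 2.46 CPM in KO, against 3.25 and 10.8 CPM in WT. WT replicate 2 was the high library, and WT replicate 1 lay between the KO libraries.

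Of 8 genes of synaptic vesicles and secretion, 6 were tested and 0 were called. Snap25, a SNARE protein of vesicle fusion, measured 5.28 and 3.34 CPM in KO, against 6.11 and 6.83 CPM in WT. Both KO libraries lay below both WT libraries, with a log2 fold change of -0.59 and an interval from -1.24 to 0.07. It ran from -0.96 without KO replicate 1 to -0.30 without KO replicate 2. Syt1, the calcium sensor of release, measured 5.70 and 7.50 CPM in KO and 5.81 and 11.8 CPM in WT. Syp, synaptophysin, measured 7.60 and 8.05 CPM in KO and 6.19 and 7.62 CPM in WT. Vamp2, the vesicle SNARE, measured 20.1 and 15.5 CPM in KO and 19.2 and 16.2 CPM in WT, with a log2 fold change of 0.01. The synapsins tether vesicles to the cytoskeleton. Syn2 was the more abundant, at 37.7 and 25.2 CPM in KO and 35.9 and 31.3 CPM in WT, while Syn1 measured 4.06 and 2.03 CPM in KO and 3.32 and 1.52 CPM in WT.

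Among genes of synaptic signalling and protein turnover, the glutamate receptor subunit gene Gria2 measured 434 and 407 CPM in KO, against 363 and 518 CPM in WT. The WT libraries enclosed the KO libraries. Camk2b, a calcium-dependent kinase subunit, measured 208 and 145 CPM in KO and 235 and 186 CPM in WT, with a log2 fold change of -0.25 (SE 0.20), which ran from -0.54 without KO replicate 1 to -0.014 without KO replicate 2. Uchl1, a ubiquitin hydrolase, measured 25.1 and 24.0 CPM in KO and 20.7 and 21.8 CPM in WT. KO lay above WT for Uchl1 without overlap, with an interval from -0.20 to 0.61, and 18.1% of its exon length overlaps the antisense gene Uchl1os.

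Among transcription factors, Tbr1 of deep-layer cortical neurons measured 2.16 and 1.81 CPM in KO, against 2.57 and 3.11 CPM in WT. Bcl11b, also of deep-layer neurons, measured 4.17 and 3.72 CPM in KO and 2.49 and 4.02 CPM in WT. The neuronal RNA-binding proteins followed. Elavl3 measured 19.6 and 12.5 CPM in KO and 15.7 and 17.6 CPM in WT, and Elavl4 measured 24.1 and 25.0 CPM in KO and 19.0 and 40.9 CPM in WT. WT replicate 2 held the highest Elavl4 value, as it did for Thy1 and Syt1.

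REST sites were looked for in promoter windows of 250 bases before to 50 after the start, from RefSeq (GRCm38.p6), which held 31 windows for 24 of the 37 genes. The other 13 genes were not searched, nor was any sequence outside these windows. The RE1 letters searched, on both strands, were TTCAGCACC, then any 2 bases, then GGACAG. This exact site was in 4 of 32851 windows (0.0122%) and in 0 windows of the list. With up to 1 mismatch among its 15 fixed letters, it was in 19 windows (0.0578%), 2 of them of the list, Gria2 and Syn1. In Scg2 the left letters TTCAGCACC and the right letters GGACAGC adjoin with no spacer. The left letters were in 0.371% of all windows and the right letters in 6.56%. Windows of all genes that hold both adjoining were not counted, so these shares give no background for the Scg2 pattern. Gria2 and Syn1 are shown as the 2 members with the site at up to 1 mismatch, and Scg2 as the member with adjoining left and right letters, which is not the searched site. Capitals mark these bases, which read on the opposite strand in Gria2 and Scg2. The windows are chr3:80802786-80803085 (minus strand) for Gria2, chrX:20920869-20921168 (minus strand) for Syn1 and chr1:79439977-79440276 (minus strand) for Scg2.
Gria2: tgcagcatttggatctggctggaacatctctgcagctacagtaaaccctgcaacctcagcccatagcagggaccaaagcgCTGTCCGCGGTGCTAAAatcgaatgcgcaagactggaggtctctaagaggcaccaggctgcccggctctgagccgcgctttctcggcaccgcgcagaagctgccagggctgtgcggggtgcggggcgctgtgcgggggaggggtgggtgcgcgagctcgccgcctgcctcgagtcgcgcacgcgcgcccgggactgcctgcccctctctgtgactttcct
Syn1: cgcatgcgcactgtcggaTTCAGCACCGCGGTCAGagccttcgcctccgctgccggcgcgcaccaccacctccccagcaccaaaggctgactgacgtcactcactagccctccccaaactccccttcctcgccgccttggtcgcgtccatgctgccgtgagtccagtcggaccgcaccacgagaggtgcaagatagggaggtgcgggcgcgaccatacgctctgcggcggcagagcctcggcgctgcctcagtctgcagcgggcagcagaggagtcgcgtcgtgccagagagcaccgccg
Scg2: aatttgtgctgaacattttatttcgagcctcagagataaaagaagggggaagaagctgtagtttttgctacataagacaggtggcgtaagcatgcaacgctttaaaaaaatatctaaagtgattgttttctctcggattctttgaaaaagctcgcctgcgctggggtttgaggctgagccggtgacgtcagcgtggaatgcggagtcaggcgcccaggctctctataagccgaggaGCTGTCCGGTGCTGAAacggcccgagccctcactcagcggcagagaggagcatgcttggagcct
Gria2 averaged 431 CPM over the 4 libraries, Syn1 2.73 CPM and Scg2 0.121 CPM. Binding was not measured. Rest itself averaged 55.9 ± 0.648 CPM in KO and 54.3 ± 6.11 CPM in WT (SD, n = 2 each).

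Levels of different genes were compared per kilobase of exon (GENCODE M21 lengths). Map2 was the highest at 71.6 CPM per kb, above 97.2% of the tested genes with a length. Stmn3 (42.1), Gap43 (41.6) and Dpysl3 (40.3 CPM per kb) followed, and their ranges over libraries overlapped. Of the 30 tested members, 8 lay above 75% of tested genes and 17 at or under the median. Tubb3 was at 2.998 and Dcx at 0.305 CPM per kb.

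Fold changes of the tested members went both ways. In log2 fold change, 16 were positive and 14 negative, and the median was 0.03. Over all 19912 tested genes, 9896 were positive and 10016 negative, and the median was -0.0013. The groups did not overlap for 8 of the 30 members (26.7%), against 27.4% of all tested genes. KO lay above WT for 5 of them, Tubb3, Stmn3, Stmn4, Cntn2 and Uchl1, where 12.5% of all genes did. KO lay below WT for 3, Nefh, Snap25 and Tbr1, where 14.9% of all genes did. Stmn4 and Nefh passed the filter through a single genotype, which favours such a gap. Without them the groups did not overlap for 6 of 28 members (21.4%), with KO above WT for 4 and below for 2. By role, positive values were held by 7 of 8 microtubule genes (6 of 7 without Stmn4, and 5 of 8 without WT replicate 1), 1 of 3 neurofilament genes and 3 of 6 axon growth genes. They were held by 3 of 6 vesicle genes, 1 of 3 synaptic signalling genes, 1 of 2 transcription factor genes and 0 of 2 RNA-binding genes. The 95% interval lay within a 2-fold change either way for 18 of the 30 members and within a 1.5-fold change for 8. For the other 12 it reached beyond a 2-fold change.

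**Figure D2:**
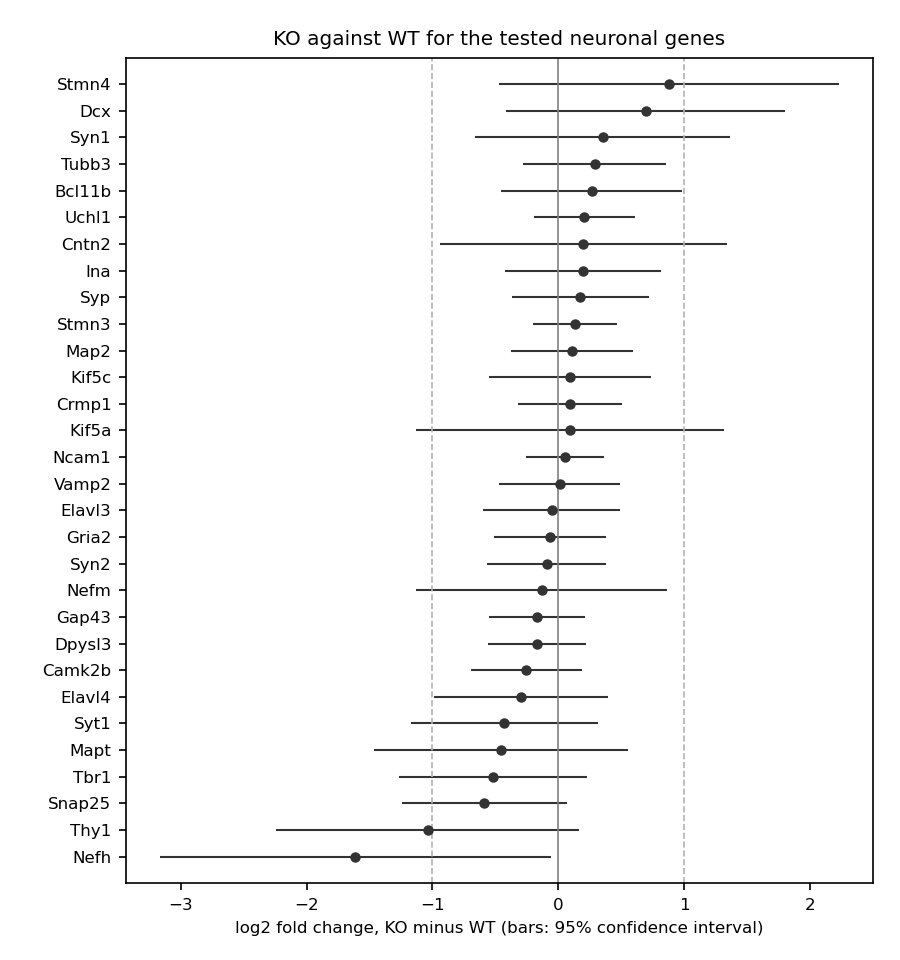
Log2 fold change, KO minus WT, of the 30 tested neuronal genes with 95% confidence intervals from the edgeR fit; dashed lines mark a 2-fold change. Nefh, at -1.61, is the single gene whose interval does not reach 0 before adjustment.

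Differences between libraries of the same genotype were set beside that between the genotype means. On log2(CPM + 0.5), the median absolute difference was 0.36 between the KO libraries, 0.27 between the WT libraries and 0.18 between the genotype means. Over all tested genes these medians were 0.25, 0.22 and 0.14. The last is expected to be the smallest without any genotype effect, since each mean is taken over 2 libraries. The genotype difference exceeded both within-genotype differences for 6 of 30 members (20%), against 17.5% of all tested genes. KO replicate 1 was the highest library for 13 members (43.3%, against 22.1% of all tested genes) and WT replicate 2 for 9 (30%, against 21.4%). WT replicate 1 was the lowest for 12 (40%, against 26%). KO replicate 2 was the lowest for 11 (36.7%), near the 31.9% of all tested genes.

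Markers of glia were read in the same libraries. Of 10 astrocyte genes, 8 were negative in log2 fold change and 2 positive, with a median of -0.29. KO lay below WT without overlap for 7 and above for 1, where 14.9% and 12.5% of all tested genes did. The summed level of the astrocyte genes was 861 and 740 CPM in KO and 779 and 894 CPM in WT. This sum includes the positive gene Aldh1l1, at 247 and 198 CPM in KO and 110 and 158 CPM in WT. Of 9 tested oligodendrocyte lineage genes, 9 were positive, with a median of 0.38. KO lay above WT without overlap for 6, where 12.5% of all tested genes did. The summed level of the oligodendrocyte list was 1531 and 1491 CPM in KO and 1476 and 1349 CPM in WT. Without WT replicate 1 there were 9 of 10 negative astrocyte genes and 8 of 9 positive oligodendrocyte genes. Negative astrocyte genes numbered 8 without WT replicate 2, 8 without KO replicate 1 and 7 without KO replicate 2. Positive oligodendrocyte genes numbered 7, 7 and 9 in the same fits. None of these genes was called by edgeR with all libraries. At an unadjusted edgeR p under 0.05, Aldh1l1 was higher in KO (log2 fold change 0.73) and Sparcl1 lower (-0.40). The 3 oligodendrocyte genes at such a p were higher in KO. Of all tested genes, 1.15% were higher and 1.62% lower in KO at such a p. The part of glial cells in the neuronal values was not tested.

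**Figure D3:**
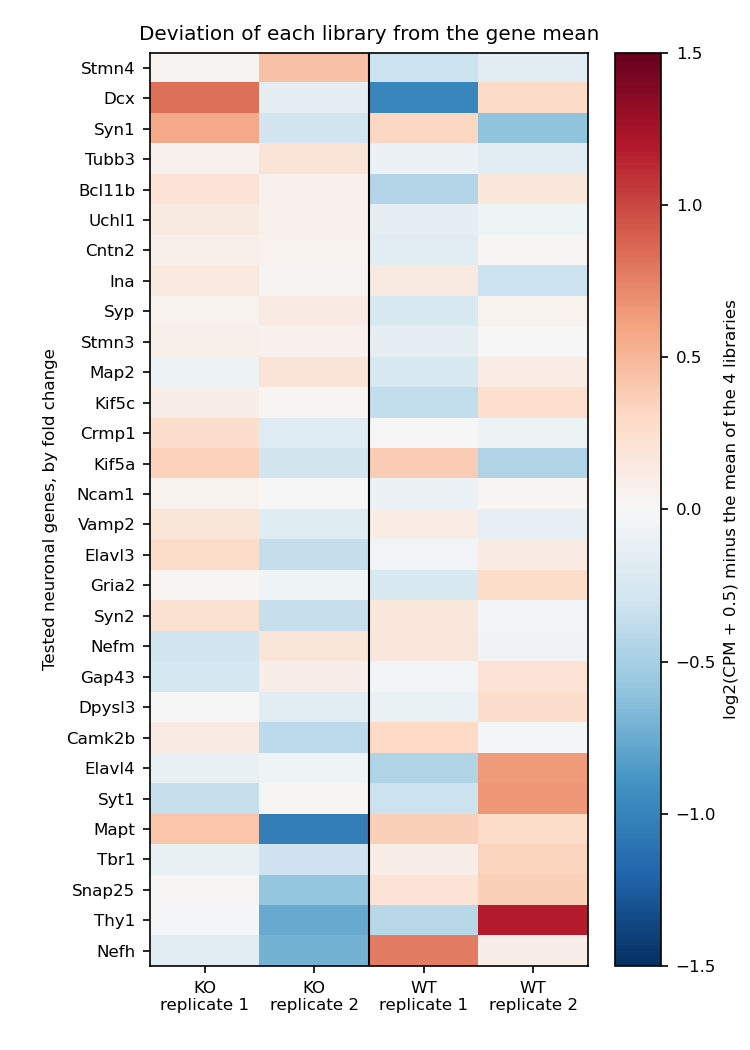
Deviation of each library from the gene's mean over the 4 libraries, in log2(CPM + 0.5), for the 30 tested genes ordered by fold change, with the KO libraries left of the line and the WT libraries right of it. Thy1 is high in WT replicate 2 only, and Mapt is low in KO replicate 2 only.

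The larger fold changes moved with single libraries. Without WT replicate 1, the library with Y-linked RNA, Thy1 passed the threshold over all genes (log2 fold change -1.64, edgeR adjusted p = 0.00494), where 0.156% of genes were called. Without WT replicate 2 the Thy1 value was 0.10, and 0 members passed where 0.0854% of genes were called. Without KO replicate 1, Mapt passed (-1.38, adjusted p = 0.00399), where 0.236% of genes were called, and without KO replicate 2 the Mapt value was 0.10. Dcx ranged from 0.07 without KO replicate 1 to 1.68 without WT replicate 2. Tubb3 stayed between 0.22 and 0.36 and Uchl1 between 0.17 and 0.26 over these 4 fits, with no call. Without WT replicate 1 the list had 14 positive and 16 negative values.

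**Figure D4:**
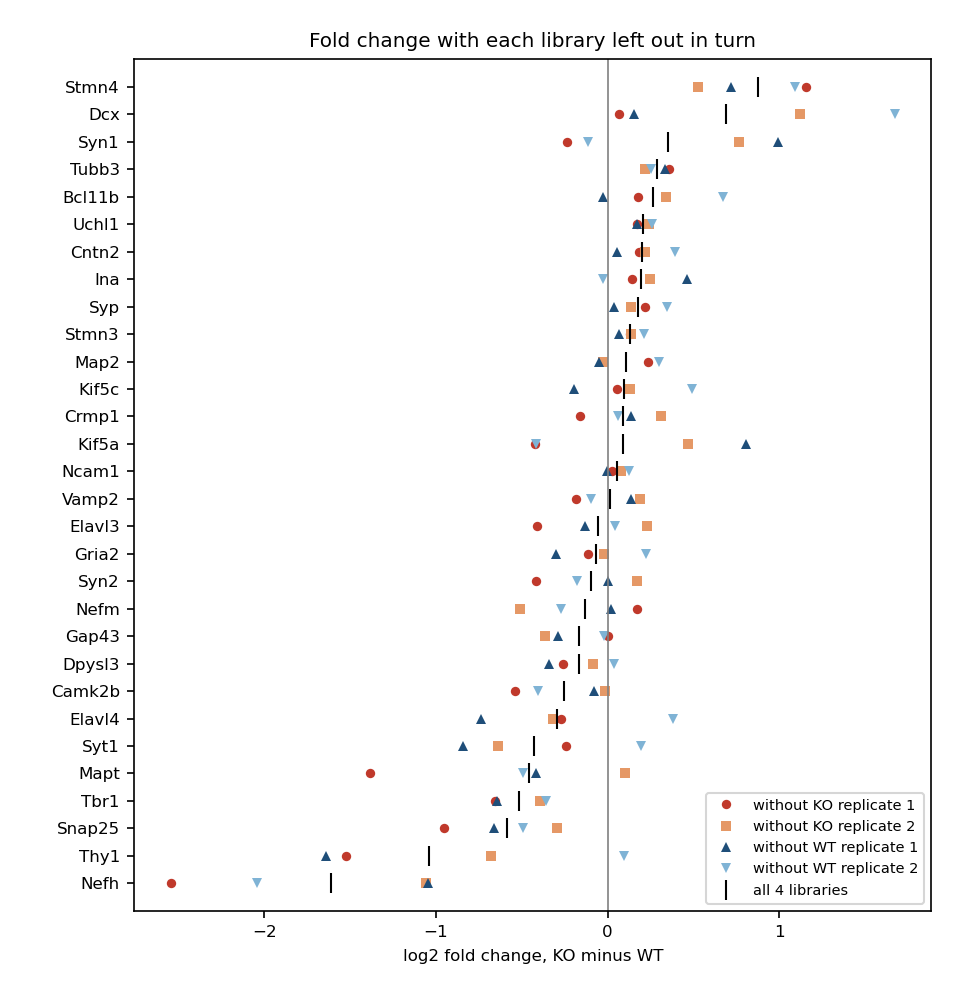
Log2 fold change, KO minus WT, of the 30 tested neuronal genes with all 4 libraries (black bar) and with each library left out in turn (coloured points). Thy1 runs from -1.64 to 0.10 and Mapt from -1.38 to 0.10, while Tubb3 stays between 0.22 and 0.36.

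Other genes of neuronal differentiation were taken from a further list of 50, of which 42 were tested and 0 were called in either direction. The log2 fold change was positive for 13 and negative for 29, and its median was -0.14. The astrocyte and oligodendrocyte lists had medians of -0.29 and 0.38 in the same fit, and their part in this was not tested. Without WT replicate 1 the neuronal list was positive for 16 and negative for 26 (median -0.22). Without WT replicate 2 it was positive for 18 and negative for 24 (median -0.11). Without KO replicate 1 these counts were 12 and 30 (median -0.26), and without KO replicate 2 they were 17 and 25 (median -0.056). With all libraries, at an unadjusted edgeR p under 0.05, 1 was higher and 6 were lower in KO, where 1.15% and 1.62% of all tested genes were. Myt1l, a transcription factor that represses non-neuronal genes, read 0.739 and 0.383 CPM in KO, against 1.89 and 2.20 CPM in WT (log2 fold change -1.85, SE 0.48, edgeR adjusted p = 0.9999). Its counts were 14 and 7 in KO, against 25 and 36 in WT. KO replicate 2 lay under the filter cutoff of 0.571 CPM. Only WT had both libraries over that cutoff, which can favour a lower value in KO. Nsg2, a neuronal endosomal protein, read 19.5 and 10.8 CPM in KO, against 29.7 and 27.0 CPM in WT. It passed the threshold without KO replicate 1 (-1.39, edgeR adjusted p = 0.00911), and its log2 fold change was -0.53 without KO replicate 2. The AMPA receptor subunit gene Gria1 read 1.53 and 0.657 CPM in KO, against 2.04 and 4.02 CPM in WT, with a log2 fold change of -1.47 that was -0.88 without WT replicate 2. The tubulin gene Tubb4a went the other way, with 3.43 and 3.72 CPM in KO, against 1.06 and 2.01 CPM in WT, and a log2 fold change of 1.19 that was 0.83 without WT replicate 1. The groups did not overlap for any of these 4, which were named for their small p.

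Neurogenic progenitor genes, upstream of the members, had 8 of 11 tested, with 5 positive, 3 negative and 0 called. Without WT replicate 2 this turned to 2 positive and 6 negative, as it did without KO replicate 1, and without WT replicate 1 it was 6 and 2. Hes6, which promotes neuronal differentiation, read 52.7 and 48.7 CPM in KO, against 70.9 and 71.4 CPM in WT (log2 fold change -0.49, SE 0.14). Btg2, an antiproliferative gene of neurogenic divisions, read 75.7 and 83.3 CPM in KO and 73.9 and 66.5 CPM in WT, and the Notch ligand gene Dll3 read 17.0 and 9.74 CPM in KO and 14.5 and 7.32 CPM in WT. Repressors of neuronal genes had 13 of 13 tested, with 9 positive, 4 negative and 0 called. There were 12 positive and 1 negative without WT replicate 1, but 7 and 6 without WT replicate 2. Without KO replicate 1 there were 10 and 3, and without KO replicate 2 there were 9 and 4. Among the repressors, Kdm1a, a demethylase of the CoREST complex, read 116 and 114 CPM in KO, against 103 and 92.5 CPM in WT. Hdac1 read 95.6 and 147 CPM in KO and 90.7 and 107 CPM in WT. Hdac2 read 253 and 317 CPM in KO and 252 and 270.3 CPM in WT. Sin3a, of the complex of that name, read 74.3 and 71.0 CPM in KO and 66.4 and 66.3 CPM in WT.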

How the data were processed

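RNA was measured in 4 libraries, 2 KO and 2 WT. The deposited files, 1 for each library, hold raw read counts for each Ensembl gene. The submitters' processing notes name STAR 2.7.10, featureCounts and GRCm39. How strand and multiply mapped reads were treated is not stated there. Symbols came from GENCODE M21 and matched 52081 of 55414 identifiers. Genes were filtered with filterByExpr (minimum count 10), scaled by TMM and tested with edgeR 4.0.16 (R 4.3.3) by glmQLFit with robust=TRUE and glmQLFTest. P-values were adjusted by Benjamini-Hochberg over all 19912 genes, and a gene was called under 0.05. SE was taken as the fold change (log2) divided by the square root of F. The test was checked on counts simulated from its own fit, which does not test how well that fit describes these libraries. Alternatives were other scalings and filters, DESeq2 1.42.0, limma-voom (limma 3.58.1), robust=FALSE, the replicate number as a block, and each library left out. Values of other lists with a library left out, and counts without the 2 members tied to the filter, were added after seeing the data. The members and lists were chosen with earlier results of these data known; the RE1 letters were chosen after the data were seen. Each member is named. Of the other neuronal, progenitor and repressor lists, the up to 4 tested genes with the smallest p are named, and Rest. A gene that this rule takes is not reported here. Replicate libraries differed by more than counting error, the chi-square over its degrees of freedom being 26.3 for KO and 16.6 for WT.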

Additional observations from a re-analysis of the deposited data

How the results depend on the processing

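Of 387 values of single members under the alternatives, 359 kept their sign and side of the threshold, 26 changed sign and 2 passed the threshold. Each sign change came from leaving out a library, and 11 members kept their sign under every alternative tried. The count of called genes was 1 in the reported fit and ran from 1 to 47 with a library left out. It was 41 with no low-count filter, 6 with DESeq2 and 9 with the replicate block. The count of called members was 0 with the replicate block and in each other alternative with all libraries, and ran from 0 to 1 with a library left out. The members' median was 0.03, was -0.051 over 36 genes with no low-count filter, and ran from -0.14 to 0.13 with a library left out. Fits with a lone library in a group assume that it varies like the others. Same-numbered libraries deviated together with a correlation of 0.29 over all tested genes, but no label marks pairs. Members that changed sign ranged as follows in log2 fold change, KO minus WT, with a library left out: Bcl11b -0.028 to 0.67, Crmp1 -0.16 to 0.31, Dpysl3 -0.34 to 0.036, Elavl3 -0.41 to 0.23, Elavl4 -0.74 to 0.38, Gap43 -0.36 to 0.0043, Gria2 -0.30 to 0.22, Ina -0.028 to 0.46, Kif5a -0.43 to 0.81, Kif5c -0.20 to 0.49, Map2 -0.050 to 0.30, Mapt -1.38 to 0.10, Ncam1 -0.0051 to 0.13, Nefm -0.51 to 0.17, Syn1 -0.24 to 1.00, Syn2 -0.42 to 0.17, Syt1 -0.84 to 0.20, Thy1 -1.64 to 0.10, Vamp2 -0.19 to 0.19. Mettl4 was called under every alternative, between -2.06 and -1.89. With 2 libraries a group, 12 of 30 members had intervals reaching beyond a 2-fold change.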
